A study of Homo sapiens with 6 samples.

Results

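Metalloproteinases of the matrix metalloproteinase (MMP), ADAM and ADAMTS families and their tissue inhibitors (TIMPs) were followed in H2087-LCC cells. Members were taken by gene symbol alone: every row of the deposited expression table named MMP, ADAM or ADAMTS with a number, or TIMP1 to TIMP4. This gave 59 of the 21293 genes in the table, with 21 MMP, 16 ADAM, 18 ADAMTS and 4 TIMP genes. H2087-LCC is a latency competent, dormant metastatic population selected from the human stage I lung adenocarcinoma line H2087, so all 6 libraries come from 1 selected line grown in culture. Cells were incubated for 3 days with SB505124 (SB), which blocks the type I TGFβ receptor and so sets a baseline without endogenous TGFβ signaling, or with TGFβ for 3 days or for 7 days, with 2 libraries per group. The paper describes the 2 libraries as technical replicates, so the errors and p-values given here cover the spread between libraries and may not cover the spread between cultures. SB was sampled at 3 days only, and in the comparison of 7 days of TGFβ with SB the treatment and the time in culture cannot be told apart. Both comparisons with SB use the same 2 SB libraries.

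MMPs, ADAMs and ADAMTSs are zinc-dependent proteases that are made as inactive precursors. MMPs cut collagens and other matrix proteins, ADAMs are mostly anchored in the membrane and release the outer parts of other membrane proteins, and ADAMTSs are secreted enzymes that cut proteoglycans, process procollagens or act on microfibrils. TIMPs bind the active site of MMPs and of some ADAM and ADAMTS enzymes, and TGFβ is known as a regulator of several of these genes in epithelial cells that undergo an epithelial-mesenchymal transition.

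The catalytic zinc of these enzymes is held by 3 histidines in a short signature that also holds a glutamate. The codons for this signature were located in the coding sequences of the GENCODE annotation on GRCh37, which has the coordinates of hg19, the build of the deposited table. They are shown for the members on which the results turn, since they mark the same catalytic site in all 3 enzyme families. Each run is 33 bases, read 5′ to 3′ on the coding strand, and capitals mark the 3 histidine codons.
MMP14: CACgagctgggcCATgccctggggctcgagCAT
MMP2: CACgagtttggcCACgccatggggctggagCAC
MMP9: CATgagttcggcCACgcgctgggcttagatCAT
MMP1: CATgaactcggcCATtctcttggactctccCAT
MMP13: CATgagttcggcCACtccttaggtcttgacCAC
ADAM17: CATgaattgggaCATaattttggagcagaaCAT
ADAM19: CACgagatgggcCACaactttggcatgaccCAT
ADAM33: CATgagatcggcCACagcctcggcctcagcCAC
ADAMTS6: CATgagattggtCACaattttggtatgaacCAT
ADAMTS7: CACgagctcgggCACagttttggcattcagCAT

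The MMP14 run lies in exon 5 at chr14:23312492-23312524 on the plus strand, that of MMP2 in exon 8 at chr16:55525739-55525771 (plus) and that of MMP9 in exon 8 at chr20:44641092-44641124 (plus). The runs of MMP1 and MMP13 lie in exon 5 of each gene at chr11:102666280-102666312 and chr11:102822844-102822876, both on the minus strand. ADAM17 (chr2:9650207-9650239), ADAM19 (chr5:156932742-156932774) and ADAM33 (chr20:3654069-3654101) carry it in exon 11, on the minus strand. In ADAMTS6 and ADAMTS7 the codons are split by an intron, between exons 9 and 10 within chr5:64595943-64625221 and between exons 7 and 8 within chr15:79080701-79082047, and the spliced sequence is printed. Of the 33 bases of MMP14, 27 were shared with MMP2, 24 with MMP9, 23 with MMP1 and 22 with MMP13. The counts were 19 for ADAM17, 21 each for ADAM19 and ADAM33, 18 for ADAMTS6 and 21 for ADAMTS7. ADAM15 and ADAM8, whose runs are not printed, shared 25 and 24. Part of this sharing is fixed by the search pattern. With a glycine codon in its fixed place, the signature was found in 62 of 19894 coding sequences (0.312%) and in 45 of the 58 coding members, namely 20 of 20 MMP, 12 of 16 ADAM, 13 of 18 ADAMTS and 0 of 4 TIMP genes. A further 5 members, ADAMTS1, ADAMTS4, ADAMTS8, ADAMTS9 and ADAMTS15, have the histidine and glutamate codons with another codon in the glycine's place. ADAM11, ADAM22, ADAM23 and ADAM32 have neither form.

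The deposited values are counts normalized by library size and rounded to whole numbers, called normalized counts below. Their totals ran from 34306283 to 36340734 per library, and 1 read was worth an estimated 0.896 to 1.10 normalized counts, so a value of a few units rests on a few reads. The 10 epithelial and lung adenocarcinoma markers all reached a mean of 10, and their summed level per library was 106268 to 125621 with SB, 98913 to 111207 at 3 days and 89161 to 102077 at 7 days. Against SB, 7 of the 10 were lower and 1 (KRT7) was higher at both times, among them CDH1 (E-cadherin), at 371 and 635 with SB, 28 and 24 at 3 days and 10 and 9 at 7 days, and NKX2-1, at 2784 and 2908, 712 and 748, and 853 and 857. The defining leukocyte markers PTPRC, CD3E and LYZ did not exceed 5 in any library, and the fibroblast markers LUM and DCN did not exceed 1. Another leukocyte marker, the receptor gene CSF1R, went from 34 and 31 with SB to 626 and 677 at 3 days and 1114 and 1032 at 7 days (log2 fold changes 4.28 and 5.0, limma adjusted p = 2.05e-09 and 1.78e-10), and CD68 was at 4368 to 5113 in all libraries. The summed levels of the leukocyte list were 4862 to 5170, 5009 to 5717 and 5607 to 6143 in the same order, of the endothelial list 171 to 306, 159 to 168 and 227 to 248, and of the fibroblast list 114 to 114, 1049 to 1234 and 2819 to 3077, the last almost wholly through the collagen gene COL6A3. The part of these shifts in the results below was not tested. The 2 SB libraries stood apart from each other in surfactant genes (SFTPB 1104 and 8273) and in some members. For several of these, changes without 1 of the SB libraries are given below. In RNA from whole cultures, fewer cells that express a gene and less RNA per cell cannot be told apart.

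Of the 59 members, 36 reached a mean of 10 normalized counts over the 6 libraries and were tested, within a limma fit of log2(value + 1) across all 14395 genes that did so. Adjusted p is the Benjamini-Hochberg value over all 14395 genes, a gene is said to have risen or fallen where it is below 0.05, and the fold changes below are on this log2(value + 1) scale, with their SE. After 3 days of TGFβ, 19 of the 36 tested members had changed against SB (17 higher, 2 lower), which is 52.8% of them, against 29.0% of all genes tested (14.9% higher, 14.0% lower). After 7 days, 25 had changed against SB (22 higher, 3 lower), or 69.4%, against 54.5% of all genes (27.7% higher, 26.9% lower). Between 3 and 7 days of TGFβ, 21 changed (18 higher, 3 lower), or 58.3%, against 33.2% of all genes (17.0% higher, 16.2% lower). With an absolute log2 fold change of at least 1 as a further condition, 14 members (13 higher, 1 lower) passed at 3 days, beside 8.80% of all genes (4.69% higher, 4.11% lower), 18 (17 higher, 1 lower) at 7 days, beside 16.7% (9.82% higher, 6.85% lower), and 10 (8 higher, 2 lower) between the times, beside 6.53% (4.63% higher, 1.90% lower). The median log2 fold change over the tested members was 0.29, 0.72 and 0.55 in these comparisons, beside -0.02, -0.00 and 0.02 over all genes. In 18, 24 and 25 members both libraries of the later or treated group were above both of the other, or 50%, 66.7% and 69.4%, against 30.3%, 38.9% and 36.2% of all genes. In 6, 6 and 3 members they were below, or 16.7%, 16.7% and 8.33%, against 32.9%, 38.6% and 32.9% of all genes. The filter used all 6 libraries, so some members entered through their TGFβ libraries. The SB means of ADAM33, ADAMTS7, MMP2, MMP9, ADAMTS10 and ADAMTS3 were 1.5, 2, 4.5, 6, 8 and 9.5. Each of these passed as higher than SB at both times, while ADAMTS9 (SB mean 9) passed no test. With no filter, 14 of 57 members passed at 3 days, 26 at 7 days and 18 between the times. Of 19977 genes in that fit, 2846, 7435 and 3042 passed.

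**Figure D1:**
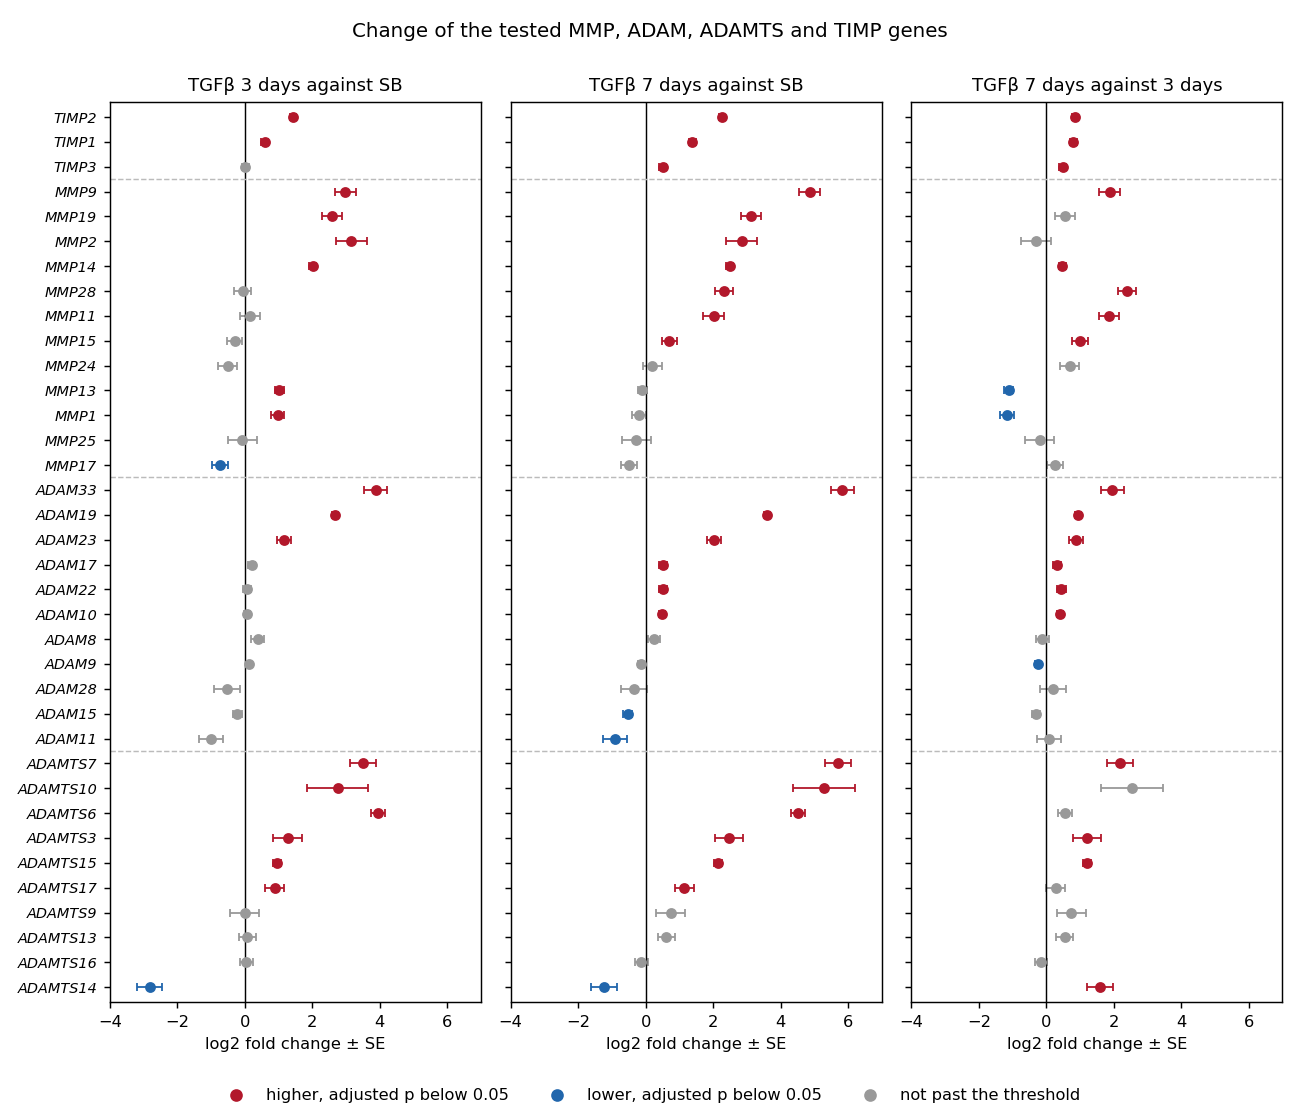
Log2 fold change (horizontal axis, log2(value + 1) scale) ± SE of the 36 tested members in the 3 comparisons, grouped from top to bottom as TIMP, MMP, ADAM and ADAMTS genes and ordered within a group by the change at 7 days against SB. Red points passed the threshold as higher, blue as lower and gray ones did not pass, and in the comparison of 7 days with SB 22 points are red and 3 are blue.

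By order of change, the tested members fell into a few patterns. MMP9, MMP14, TIMP1, TIMP2, ADAM19, ADAM23, ADAM33, ADAMTS3, ADAMTS7 and ADAMTS15, 10 in all, rose by 3 days and rose again by 7 days. A further 5 members (MMP2, MMP19, ADAMTS6, ADAMTS10 and ADAMTS17) were higher than SB at both times and did not pass the test between them, and 7 (MMP11, MMP15, MMP28, TIMP3, ADAM10, ADAM17 and ADAM22) passed only at 7 days, against SB and against 3 days. MMP1 and MMP13 rose by 3 days and fell between 3 and 7 days, and ADAMTS14 fell by 3 days and rose between 3 and 7 days. The other members were MMP17, which passed as lower than SB at 3 days, ADAM11 and ADAM15, which passed as lower at 7 days, ADAM9, which passed as lower at 7 than at 3 days, and 7 members that passed no test (ADAM8, ADAM28, ADAMTS9, ADAMTS13, ADAMTS16, MMP24 and MMP25).

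MMP14, a membrane-anchored collagenase that also activates the MMP2 precursor, was the most abundant protease of the 3 families per length of transcript in every group, and most of its rise was present by 3 days. It had 24795 and 21290 normalized counts in the SB libraries, 86804 and 98648 at 3 days, and 135615 and 122833 at 7 days. The 3 groups did not overlap. Its level rose on the log2 scale by 2.01 ± 0.10 after 3 days (adjusted p = 4.48e-08) and by 2.49 ± 0.10 after 7 days (adjusted p = 3.18e-09), which are 4.02-fold and 5.61-fold in the group means. The further rise from 3 to 7 days was 0.48 ± 0.10 (adjusted p = 0.00393). Without the first 7-day library that rise was 0.41 and no longer passed (adjusted p = 0.0596). The gene lies at chr14:23305769-23318250.

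Of the 3 tested TIMPs, which bind MMPs in a one-to-one complex, 2 were higher than SB at 3 days and all 3 at 7 days. TIMP2, the inhibitor that bridges MMP14 to the MMP2 precursor, had 6440 and 6057 normalized counts with SB, 16569 and 16944 at 3 days and 29986 and 29908 at 7 days, with no overlap between groups. It rose by 1.42 ± 0.08 at 3 days (adjusted p = 8.27e-08), by 2.26 ± 0.08 at 7 days (adjusted p = 7.84e-10) and by 0.84 ± 0.08 from 3 to 7 days (adjusted p = 2.66e-05). TIMP1, a broad MMP inhibitor that is weak on MMP14, had 4914 and 4670 with SB, 6635 and 7787 at 3 days and 13390 and 11725 at 7 days. These groups did not overlap either. TIMP1 rose by 0.59 ± 0.10 at 3 days (adjusted p = 0.000914), by 1.39 ± 0.10 at 7 days (adjusted p = 3.97e-07) and by 0.80 ± 0.10 between them (adjusted p = 0.000182).

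TIMP3, which is held in the matrix and also inhibits ADAM17, had 1067 and 1004 normalized counts with SB, 1093 and 998 at 3 days, and 1420 and 1514 at 7 days. The SB and 3-day libraries overlapped (0.01 ± 0.10, adjusted p = 0.939, and -0.04 with equal library totals). Both 7-day libraries were above them, by 0.50 ± 0.10 against SB (adjusted p = 0.00148) and 0.49 ± 0.10 against 3 days (adjusted p = 0.00424), the last of which did not pass without the second 7-day library (0.44, adjusted p = 0.0574). TIMP4 had at most 2 normalized counts in any library and was not tested. TIMP1 lies within an intron of SYN1, on the opposite strand, and TIMP3 within an intron of SYN3, and the library kit does not mark strand.

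**Figure D2:**
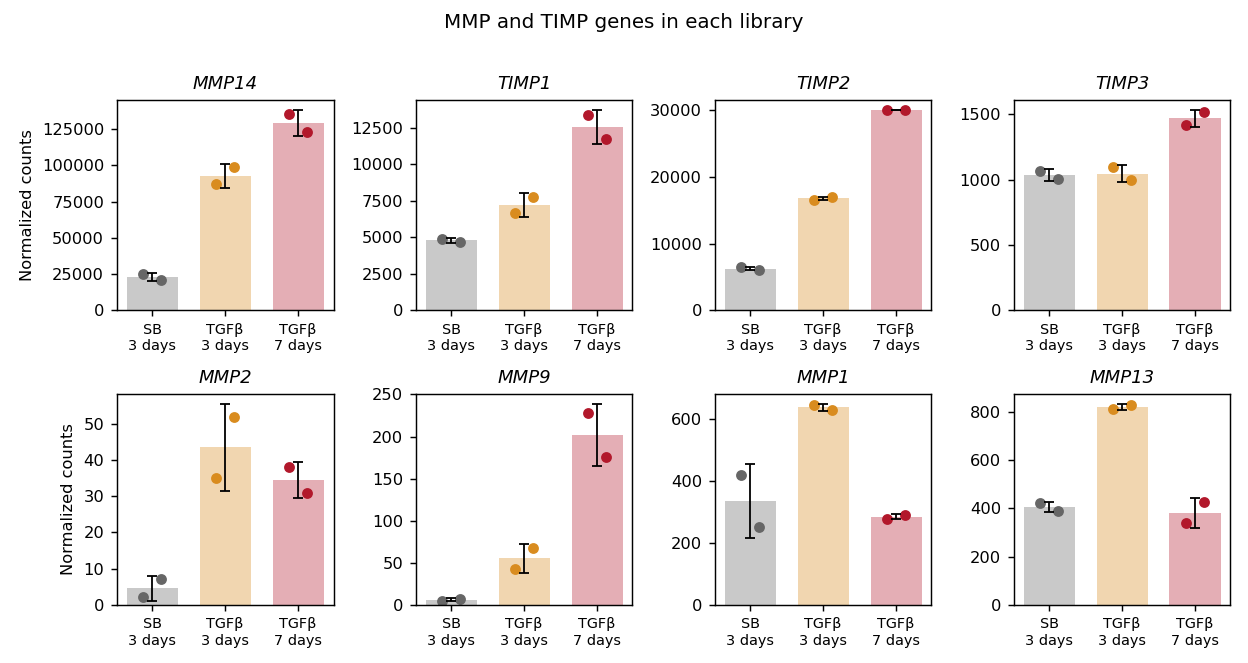
Normalized counts (vertical axes, each from 0) of 4 inhibitor or membrane-type genes (top row) and 4 secreted MMPs (bottom row) by group. Points are libraries, bars are the mean of the 2 libraries and black lines are ± SD. MMP14, TIMP1, TIMP2 and MMP9 climb over the 3 groups, whereas MMP1 and MMP13 are highest at 3 days, at 631 to 647 and 814 to 831.

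Levels of different genes were compared per kilobase of the canonical transcript. These levels depend on that length, and which transcripts were expressed was not tested. With SB, TIMP1 (6231 normalized counts per kb) and MMP14 (6226) led the members and did not differ beyond their spread, followed by ADAM15 (2795), ADAM9 (2777) and TIMP2 (1711). At 3 days MMP14 stood at 25054 per kb, ahead of TIMP1 at 9377, TIMP2 at 4588 and ADAM9 at 2991. At 7 days MMP14 reached 34916, TIMP1 16330 and TIMP2 8200, and ADAM9 (2504) and ADAM19 (2411) were close to each other. Among the 12837 tested genes with a transcript length, MMP14 ranked 323 with SB, 66 at 3 days and 34 at 7 days, and TIMP2 moved from 1456 to 465 and 219.

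The summed level of TIMP1, TIMP2 and TIMP3 per kb, divided by that of MMP14, was 1.25 and 1.38 in the SB libraries, 0.571 and 0.562 at 3 days, and 0.708 and 0.716 at 7 days. The groups did not overlap. By this measure, transcripts of the 3 inhibitors outnumbered those of MMP14 with SB only, and the ratio was lowest at 3 days. That lead with SB depends on the canonical lengths used, 769 bases for TIMP1 and 3701 for MMP14. Without division by length, the SB means of TIMP1, TIMP2 and TIMP3 were 4792, 6248.5 and 1035.5. The SB mean of MMP14 was 23042.5, above the 3 together. The ratio of TIMP2 alone to MMP14 was 0.263 and 0.288 with SB, 0.193 and 0.174 at 3 days, and 0.224 and 0.247 at 7 days, also without overlap. No test was run on these ratios, since with 2 libraries against 2 an exact two-sided permutation test cannot give a p below 0.333. They are ratios of transcripts and say nothing of the proteins.

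**Figure D3:**
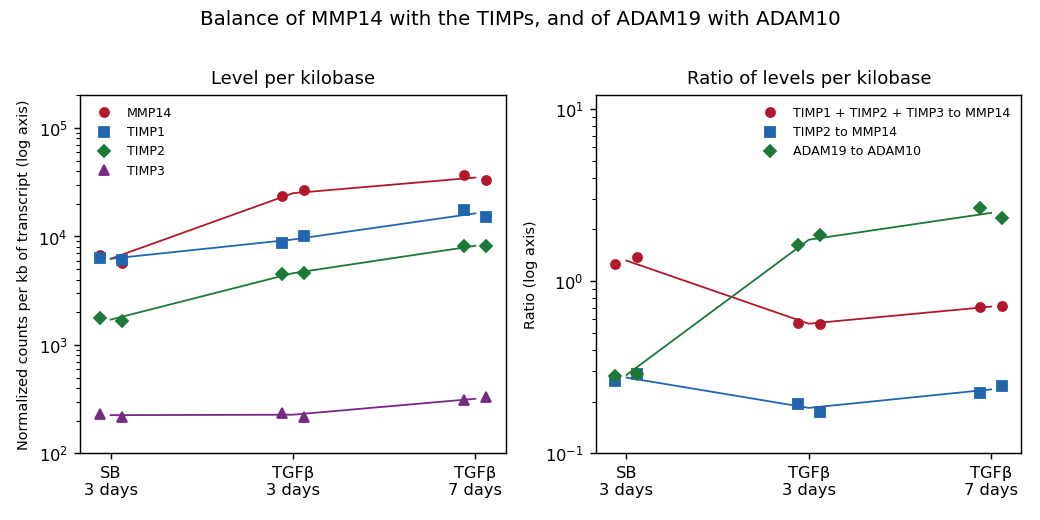
Left, level of MMP14, TIMP1, TIMP2 and TIMP3 in normalized counts per kilobase of transcript (log axis), and right, ratios of such levels (log axis), by group. Points are libraries and lines join the means of the 2 libraries. The ratio of the 3 TIMPs to MMP14 falls from 1.25 and 1.38 with SB to 0.571 and 0.562 at 3 days, and the ratio of ADAM19 to ADAM10 rises from 0.281 and 0.289 to 2.66 and 2.33 at 7 days.

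The gelatinases, which cut denatured collagen and basement membrane collagen, were barely detected with SB and rose with TGFβ. MMP9 had 5 and 7 normalized counts with SB, 43 and 67 at 3 days, and 228 and 176 at 7 days. The groups did not overlap, and MMP9 rose by 2.98 ± 0.30 at 3 days (adjusted p = 1.73e-05), 4.86 ± 0.30 at 7 days (adjusted p = 1.21e-07) and 1.88 ± 0.30 from 3 to 7 days (adjusted p = 0.000966). In summed values the 7-day level was 33.7 times that with SB (95% interval of the ratio for counting error only, 19.1 to 65.7). MMP2 had 2 and 7 normalized counts with SB, 35 and 52 at 3 days, and 38 and 31 at 7 days. Both TGFβ groups were above SB and they overlapped each other. MMP2 rose by 3.16 ± 0.46 after 3 days (adjusted p = 0.000281) and by 2.85 ± 0.46 after 7 days (adjusted p = 0.00026), and differed by -0.31 ± 0.46 between the times (adjusted p = 0.641). Its size depends on the low SB values: without the first SB library the rises were 2.45 and 2.14, and without the second 3.86 and 3.56.

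The collagenases MMP1 and MMP13, which cut fibrillar collagens, were higher at 3 days and back near the SB level at 7 days. MMP13 had 422 and 390 normalized counts with SB, 814 and 831 at 3 days, and 338 and 425 at 7 days. It rose by 1.02 ± 0.14 at 3 days (adjusted p = 0.000162), fell by 1.12 ± 0.14 from 3 to 7 days (adjusted p = 0.000176), and at 7 days its values overlapped those with SB (-0.10 ± 0.14, adjusted p = 0.569). MMP1 had 421 and 251 with SB, 647 and 631 at 3 days, and 279 and 290 at 7 days. Both 3-day values were above all others, while the 7-day values fell between the 2 SB values. MMP1 rose by 0.97 ± 0.20 at 3 days (adjusted p = 0.00318), fell by 1.16 ± 0.20 from 3 to 7 days (adjusted p = 0.00134), and differed from SB by -0.19 ± 0.20 at 7 days (adjusted p = 0.435). The SB libraries set these values: without the second one, MMP1 was higher by 0.60 at 3 days (adjusted p = 0.0112) and lower by -0.56 at 7 days (adjusted p = 0.00666), and without the first one the 7-day value was 0.18. With no filter on low values the 3-day rise had an adjusted p of 0.0582.

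MMP1 and MMP13 belong to a cluster of MMP genes on chromosome 11, and 8 members lie there within 435223 bases (chr11:102391239-102826461). The other members of the cluster, MMP3, MMP7, MMP8, MMP10, MMP20 and MMP27, did not reach a mean of 10. The highest value among them was 20, for the stromelysin MMP10 in 1 library at 7 days (3 and 6 with SB, 12 and 9 at 3 days, 4 and 20 at 7 days). MMP1 shares 223 exonic bases with WTAPP1 on the opposite strand, and reads there cannot be assigned to either strand.

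MMP11 and MMP28 passed only at 7 days. MMP28 (epilysin), a secreted MMP of epithelia, had 23 and 21 normalized counts with SB, 19 and 23 at 3 days, and 111 and 117 at 7 days. The first 2 groups overlapped (-0.07 ± 0.26, adjusted p = 0.875), and both 7-day libraries stood above them, by 2.32 ± 0.26 against SB (adjusted p = 1.87e-05) and 2.39 ± 0.26 against 3 days (adjusted p = 8.22e-05). MMP11 (stromelysin 3), which furin activates inside the cell, had 25 and 45 with SB, 31 and 45 at 3 days, and 142 and 136 at 7 days. It differed from SB by 0.15 ± 0.30 at 3 days (adjusted p = 0.751), and rose by 2.02 ± 0.30 at 7 days (adjusted p = 0.000158) and by 1.87 ± 0.30 from 3 to 7 days (adjusted p = 0.000987).

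MMP19, which cuts basement membrane proteins, was higher at both times. It had 12 and 8 normalized counts with SB, 59 and 69 at 3 days, and 109 and 81 at 7 days, with no overlap. MMP19 rose by 2.58 ± 0.29 after 3 days (adjusted p = 4.13e-05) and by 3.13 ± 0.29 after 7 days (adjusted p = 3.81e-06), and the step of 0.55 ± 0.29 between the times did not pass (adjusted p = 0.169). It shares 821 exonic bases with TMEM198B on the opposite strand.

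Of the 5 membrane-type MMPs, MMP14 was the 1 that passed as higher at 3 days. MMP15, a transmembrane enzyme, had 66 and 60 normalized counts with SB, 53 and 49 at 3 days, and 91 and 116 at 7 days, and its rises at 7 days (0.70 against SB, adjusted p = 0.0198, and 1.0 against 3 days, adjusted p = 0.00599) did not pass without the second 7-day library (0.53 and 0.82, adjusted p = 0.186 and 0.0821), nor the first of them without the second SB library (0.63, adjusted p = 0.0576). MMP17, which is held by a lipid anchor, had 187 and 248 with SB, 107 and 153 at 3 days, and 185 and 125 at 7 days. It was lower at 3 days by -0.75 (adjusted p = 0.0358), and the 7-day difference of -0.50 did not pass (adjusted p = 0.0982). The 3-day call was lost without the second SB library (-0.54, adjusted p = 0.197) and without the first 3-day library (-0.49, adjusted p = 0.249). MMP24 (25 to 48 over the 6 libraries) and MMP25 (12 to 30) passed no test. The summed level of the 20 MMP rows other than MMP14 was 1236 and 1131 with SB, 1886 and 1988 at 3 days, and 1609 and 1594 at 7 days, so MMP14 alone held most of the MMP counts in every library.

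Among the ADAMs, the 2 best-known sheddases passed as higher than SB at 7 days and not at 3 days, whereas ADAM19 passed at both times. ADAM10, which releases Notch and many other membrane proteins, had 7264 and 8314 normalized counts with SB, 8383 and 7823 at 3 days, and 10486 and 11136 at 7 days. SB and 3 days overlapped (0.06 ± 0.09, adjusted p = 0.661), and the 7-day libraries were above both, by 0.48 ± 0.09 against SB (adjusted p = 0.000821) and 0.42 ± 0.09 against 3 days (adjusted p = 0.00476). Without the second 7-day library the latter was 0.37 and did not pass (adjusted p = 0.063). ADAM17, which releases TNF and ligands of the EGF receptor, had 2135 and 2602 with SB, 2826 and 2587 at 3 days, and 3352 and 3389 at 7 days. It differed from SB by 0.20 ± 0.11 at 3 days (adjusted p = 0.185), with overlap, and was higher by 0.52 ± 0.11 at 7 days (adjusted p = 0.00143). Its step from 3 to 7 days (0.32 ± 0.11, adjusted p = 0.0376) did not pass when any 1 of the 4 TGFβ libraries was left out (0.25 to 0.38, adjusted p = 0.0622 to 0.193), and its 3-day difference passed without the second SB library (0.34, adjusted p = 0.0322). ADAM17 shares 1645 exonic bases with IAH1 on the opposite strand.

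ADAM19, a sheddase of neuregulins that is found in mesenchymal tissue, had 1187 and 1398 normalized counts with SB, 7901 and 8446 at 3 days, and 16193 and 15054 at 7 days. The groups lay far apart. It rose by 2.66 ± 0.10 at 3 days (adjusted p = 3.48e-09), 3.60 ± 0.10 at 7 days (adjusted p = 1.2e-10) and 0.93 ± 0.10 from 3 to 7 days (adjusted p = 5.53e-05), or 6.32-fold and 12.1-fold over SB in the group means. Per kb of transcript, ADAM19 was at 0.281 and 0.289 of the ADAM10 level with SB, at 1.62 and 1.86 times that level at 3 days and at 2.66 and 2.33 times at 7 days. This ratio depends on the canonical lengths used, 6481 bases for ADAM19 and 11158 for ADAM10. Without division by length, the means of ADAM19 and ADAM10 were 1292.5 and 7789 with SB. They were 8173.5 and 8103 at 3 days, and 15623.5 and 10811 at 7 days. The rank of ADAM19 per kb among the 12837 genes went from 7063 to 1993 and 944. The gene lies at chr5:156822542-157002783 and shares 62 exonic bases with CYFIP2 on the opposite strand.

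ADAM33, a membrane protease known from mesenchymal cells of the airway, went from 1 and 2 normalized counts with SB to 30 and 41 at 3 days and 144 and 134 at 7 days. The log2 fold changes were 3.88 ± 0.34 at 3 days (adjusted p = 5.34e-06), 5.84 ± 0.34 at 7 days (adjusted p = 7.18e-08) and 1.96 ± 0.34 between the times (adjusted p = 0.00154). Against the summed SB value of 3, the ratio was 23.7 at 3 days and 92.7 at 7 days, with 95% counting intervals of 7.78 to 117 and 31.4 to 452. The 3 groups did not overlap, and the fold over SB is known only within these wide limits. The fitted change also depends on the pseudocount: with 5 in place of 1 it was 2.63 at 3 days and 4.47 at 7 days for ADAM33, and these were 2.39 and 4.45 for ADAMTS7, 1.64 and 4.01 for ADAMTS10, and 2.38 and 2.10 for MMP2, while MMP9 was at 4.23 at 7 days, and each kept its call.

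ADAM23, which lacks the zinc signature and acts in cell adhesion, also rose. It had 58 and 60 normalized counts with SB, 158 and 111 at 3 days, and 229 and 260 at 7 days, with log2 fold changes of 1.15 ± 0.21 at 3 days (adjusted p = 0.00132), 2.03 ± 0.21 at 7 days (adjusted p = 7.88e-06) and 0.88 ± 0.21 between them (adjusted p = 0.00765). The last did not pass without the second 3-day library (0.62, adjusted p = 0.0814) or the second 7-day library (0.79, adjusted p = 0.0792). ADAM22, another member without the signature and a receptor of LGI proteins, was at 434 and 494 with SB, 493 and 473 at 3 days, and 630 and 692 at 7 days. It rose at 7 days by 0.51 against SB (adjusted p = 0.00449) and 0.45 against 3 days (adjusted p = 0.0172). The first call was lost without the second 7-day library (0.44, adjusted p = 0.0585) and the second when any 1 of the 4 TGFβ libraries was left out (0.38 to 0.52, adjusted p = 0.057 to 0.151). ADAM11, the last of this kind that was tested, had 33 and 65 with SB, 20 and 26 at 3 days, and 27 and 22 at 7 days, and its lower level at 7 days (-0.90, adjusted p = 0.0487) did not pass without the second SB library (-0.42, adjusted p = 0.325) or either 7-day library (-1.04 and -0.76, adjusted p = 0.0811 and 0.2). Without the first SB library it was -1.38 (adjusted p = 0.00796). At 3 days ADAM11 differed from SB by -0.99 (adjusted p = 0.0549), and from 3 to 7 days by 0.09 (adjusted p = 0.866).

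ADAM9 and ADAM15, the most abundant ADAMs per kb with SB, passed no test as higher. ADAM15, a membrane protease with an integrin-binding motif, had 8371 and 8044 normalized counts with SB, 6194 and 7988 at 3 days, and 6207 and 5155 at 7 days, and was lower at 7 days than with SB by -0.54 (adjusted p = 0.00283). It shares 306 exonic bases with DCST1 on the same strand. ADAM9 had 11915 and 10927 with SB, 12747 and 11851 at 3 days, and 9935 and 10659 at 7 days. Its only call was a fall from 3 to 7 days, of -0.26 (adjusted p = 0.0362), which was lost when any 1 of the 4 TGFβ libraries was left out (-0.31 to -0.20, adjusted p = 0.063 to 0.254). ADAM8, known from leukocytes, ran from 962 to 1581 and ADAM28 from 24 to 58 over the 6 libraries, and neither passed a test with all libraries. Those limits of ADAM28 were its 2 SB values, and with 1 library left out its 3-day change ran from -1.15 to 0.08.

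**Figure D4:**
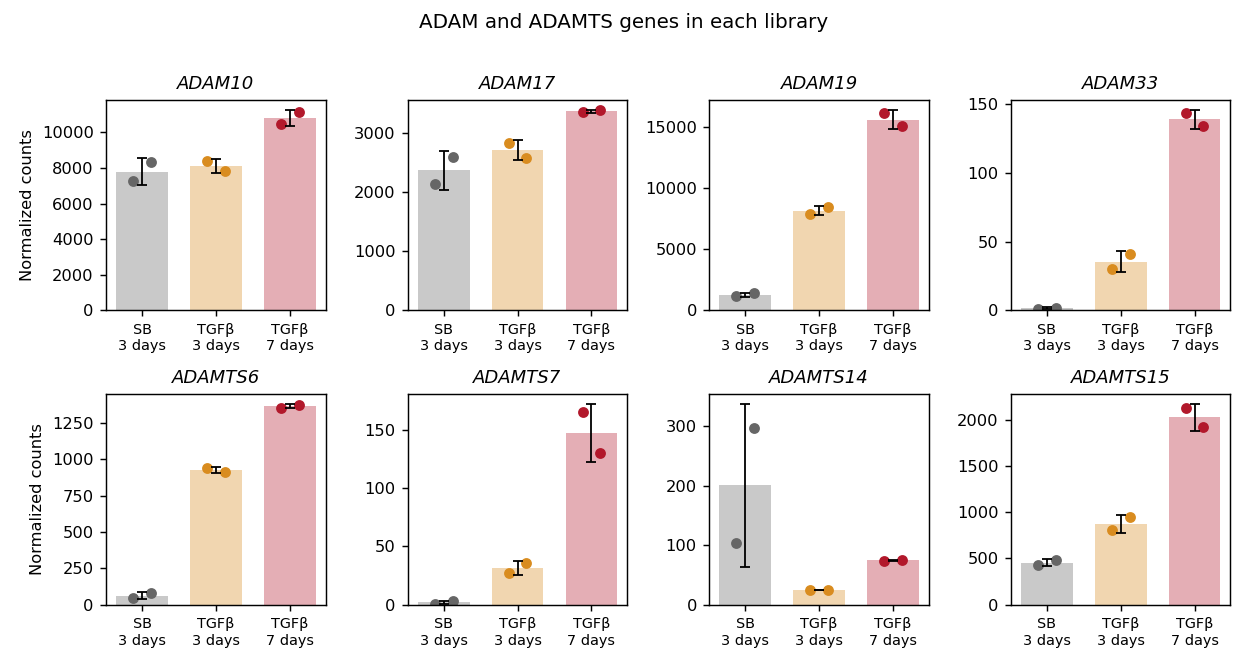
Normalized counts (vertical axes, each from 0) of 4 ADAM genes (top row) and 4 ADAMTS genes (bottom row) by group. Points are libraries, bars are the mean of the 2 libraries and black lines are ± SD. ADAM19, ADAM33, ADAMTS6, ADAMTS7 and ADAMTS15 climb from SB to 7 days, ADAM10 and ADAM17 lie higher only at 7 days, and ADAMTS14 is lowest at 3 days, at 24 in both libraries, with SB libraries at 104 and 297.

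The ADAMTS genes were low with SB, and 6 of the 10 tested were higher at each time. ADAMTS6, a protease of the fibrillin microfibril group, had 44 and 79 normalized counts with SB, 940 and 909 at 3 days, and 1353 and 1375 at 7 days, without overlap. It rose by 3.95 ± 0.21 after 3 days (adjusted p = 8.27e-08) and by 4.51 ± 0.21 after 7 days (adjusted p = 1.22e-08), 15-fold and 22.2-fold in the means, and the step of 0.56 ± 0.21 between the times did not pass (adjusted p = 0.0605). ADAMTS15, which cuts versican and aggrecan, had 428 and 479 with SB, 808 and 945 at 3 days, and 2129 and 1923 at 7 days. Its groups did not overlap, and it rose by 0.95 ± 0.12 (adjusted p = 0.000101), 2.16 ± 0.12 (adjusted p = 4.76e-08) and 1.21 ± 0.12 from 3 to 7 days (adjusted p = 4.27e-05).

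ADAMTS7, which cuts cartilage oligomeric matrix protein, was nearly absent with SB. It had 1 and 3 normalized counts there, 27 and 36 at 3 days, and 165 and 130 at 7 days. It rose by 3.51 ± 0.38 at 3 days (adjusted p = 3.13e-05), 5.70 ± 0.38 at 7 days (adjusted p = 2.3e-07) and 2.20 ± 0.38 between the times (adjusted p = 0.00152). The ratios of summed values to SB were 15.8 (5.86 to 59.6) and 73.8 (28.5 to 272), with 95% counting intervals in parentheses. ADAMTS10, a binding partner and protease of fibrillin microfibrils, had 0 and 16 with SB, 21 and 34 at 3 days, and 174 and 148 at 7 days. Both 7-day libraries were far above the rest, with 5.29 ± 0.91 against SB (adjusted p = 0.000427), whereas the 3-day rise of 2.75 ± 0.91 (adjusted p = 0.0403) rested on the SB library at 0. Without that library the changes against SB at 3 and 7 days were 0.71 and 3.25 (adjusted p = 0.145 and 6.35e-05), and without the other they were 4.79 and 7.34. The 3-day rise also did not pass without the second 3-day library (2.42, adjusted p = 0.102). The difference between 3 and 7 days was 2.54 ± 0.91 (adjusted p = 0.0501).

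The tested procollagen N-proteinases, which trim the amino-terminal propeptide of fibrillar procollagens, moved in opposite directions against SB, and both were higher at 7 than at 3 days. ADAMTS14 had 104 and 297 normalized counts with SB, 24 and 24 at 3 days, and 74 and 75 at 7 days, so that both SB libraries were above all the others although they differed widely. It fell by 2.82 ± 0.38 at 3 days (adjusted p = 0.000149) and rose by 1.59 ± 0.38 from 3 to 7 days (adjusted p = 0.00771, and 0.0843 with no filter on low values). At 7 days it was lower than SB by -1.23 ± 0.38 (adjusted p = 0.0157). Without the first SB library the changes against SB were -3.58 and -1.98, and without the second they were -2.07 and -0.48, the last of which did not pass (adjusted p = 0.138). Without the first or the second 7-day library the 7-day difference from SB was -1.22 or -1.24 (adjusted p = 0.0549 and 0.0558). ADAMTS3 had 14 and 5 with SB, 25 and 19 at 3 days, and 52 and 51 at 7 days, without overlap. It rose at 7 days by 2.47 ± 0.42 (adjusted p = 0.000406).

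At the other times ADAMTS3 was near the threshold, with 1.27 ± 0.42 at 3 days (adjusted p = 0.0414) and 1.20 ± 0.42 from 3 to 7 days (adjusted p = 0.046). Without the first SB library its rises over SB were 1.93 at 3 days and 3.13 at 7 days, and without the second they were 0.60 (adjusted p = 0.204) and 1.81. The 3-day call was lost when any 1 of the 4 TGFβ libraries was left out (1.08 to 1.45, adjusted p = 0.0582 to 0.193), and so was the call between the times (1.01 to 1.39, adjusted p = 0.0786 to 0.177). ADAMTS2, the third enzyme of this kind, had at most 2 normalized counts.

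ADAMTS17, also of the microfibril group, had 67 and 37 normalized counts with SB, 82 and 104 at 3 days, and 106 and 118 at 7 days. Both TGFβ groups were above SB, by 0.88 ± 0.28 after 3 days (adjusted p = 0.0326) and by 1.15 ± 0.28 after 7 days (adjusted p = 0.00396), and differed by 0.27 ± 0.28 from each other (adjusted p = 0.476). Without the second SB library the rises were 0.46 (adjusted p = 0.184) and 0.73 (adjusted p = 0.0256), and without the second 3-day library the 3-day rise was 0.71 (adjusted p = 0.158). ADAMTS9 (7 to 17), ADAMTS13, the protease of von Willebrand factor (40 to 77), and ADAMTS16 (106 to 134) passed no test. Over all 18 ADAMTS rows the normalized counts summed to 839 and 1107 with SB, 2115 and 2272 at 3 days, and 4282 and 4013 at 7 days, while the 16 ADAM rows summed to 32488 and 32954, 39870 and 40971, and 48676 and 47570.

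Below a mean of 10 lay 23 members (9 MMP, 5 ADAM, 8 ADAMTS and 1 TIMP), which were not tested. ADAM30 and MMP27 were at 0 in all 6 libraries. ADAM12, which is often high in mesenchymal cells, had 7 and 12 normalized counts with SB, 10 and 5 at 3 days, and 5 and 8 at 7 days, and ADAM32 had 9 and 10, 9 and 7, and 4 and 4. The versican-cleaving ADAMTS1 and ADAMTS4 did not exceed 4, the matrilysin MMP7 did not exceed 7 and the stromelysin MMP3 did not exceed 7. MMP23A and MMP23B are near-identical copies between which reads cannot be assigned with certainty, and neither exceeded 5. MMP8, MMP20, MMP21, ADAM20, ADAM21, ADAMTS8, ADAMTS12, ADAMTS18, ADAMTS19 and ADAMTS20 stayed at or below 10. Values this low rest on a few reads. In a fit with no filter on low values, which gave a value for 21 of these members, 3 passed at 7 days against SB (ADAM20 higher by 1.16, adjusted p = 0.047, ADAM32 lower by -1.07, adjusted p = 0.0342, and MMP20 lower by -1.0, adjusted p = 0.0425). ADAM20, at 2 and 1 with SB, 1 and 1 at 3 days and 4 and 5 at 7 days, also passed between the times (1.45, adjusted p = 0.0478), and MMP20 was at 1 in both SB libraries and at 0 in the others.

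Activation and clearance of these proteases depend on other genes. These were read from the same fit as lists chosen for function, with earlier results of these data known. Of 16 tested activators and cofactors, 8 rose and 1 fell at 3 days, and 11 rose and 1 fell at 7 days, with median log2 fold changes of 0.40 and 0.57. For this list and those below, the background is that of all genes given above, of which 29.0% passed at 3 days and 54.5% at 7 days with medians of -0.02 and -0.00. FURIN, the convertase that activates MMP14, MMP11 and many ADAMs, had 4606 and 4869 normalized counts with SB, 11044 and 14486 at 3 days, and 18824 and 14970 at 7 days, and rose by 1.42 and 1.83 (adjusted p = 8.02e-06 and 4.06e-07). PLAU, the urokinase that makes plasmin, rose by 1.12 and 1.53 (adjusted p = 2.43e-06 and 7.42e-08), and its receptor PLAUR by 1.19 and 1.12 (adjusted p = 8.5e-05 and 5.98e-05). PLAT, the tissue plasminogen activator, was the member of this list that was lower, by -1.54 and -1.17 (adjusted p = 1.06e-06 and 4.52e-06), with 16815 and 21583 normalized counts with SB and 6257 to 8763 in the TGFβ libraries. PCSK5, a convertase (5 and 7 with SB, 30 and 31 at 7 days), and TSPAN10, a tetraspanin partner of ADAM10 (41 and 43 with SB, 108 and 103 at 7 days), rose at 7 days by 2.18 and 1.31 (adjusted p = 0.000377 and 0.000733).

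Of 9 tested genes listed under other inhibitors and clearance, 6 rose at 3 days, 7 rose at 7 days and none fell, with medians of 1.45 and 2.05. The list also holds 2 genes that are not inhibitors, PCOLCE, which passed no test, and the enhancer PCOLCE2. PCOLCE2 is counted among the rises at both times, and its 7-day rise of 2.05 is the median given. SPOCK1, a proteoglycan that acts on MMP activation, went from 150 and 111 normalized counts with SB to 11884 and 11075 at 3 days and 32010 and 34421 at 7 days (6.46 and 8.0, adjusted p = 5.66e-11 and 2.41e-12). LRP1, the endocytic receptor that clears MMP and TIMP complexes, had 850 and 1511 with SB, 2662 and 4088 at 3 days and 10319 and 8357 at 7 days (1.54 and 3.03, adjusted p = 0.000461 and 8.97e-07). RECK, a membrane-anchored MMP inhibitor, was near its SB level at 3 days (249 and 267 with SB, 293 and 280 at 3 days) and higher at 7 days (457 and 478, by 0.86, adjusted p = 0.000215). TFPI2, a serine protease inhibitor found in the matrix, SERPINE2, an inhibitor of thrombin and plasminogen activators, and PCOLCE2, an enhancer of procollagen C-proteinase, rose by 2.24, 1.45 and 1.30 at 3 days (adjusted p = 6.58e-09, 1.41e-06 and 3e-06).

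Membrane proteins that ADAM10, ADAM17 or their relatives are known to shed moved both ways, with more falls than rises. Of 22 tested, 6 rose and 9 fell at 3 days, 7 rose and 13 fell at 7 days, and 5 rose and 7 fell between the times, with medians of -0.09, -0.49 and -0.10. NRG1, a neuregulin that ADAM19 can release, had 617 and 353 normalized counts with SB, 339 and 300 at 3 days, and 58 and 52 at 7 days, and fell by 3.06 at 7 days against SB (adjusted p = 5.91e-07) and by 2.52 from 3 to 7 days (adjusted p = 2.66e-05). The receptor tyrosine kinase AXL (4395 and 3179 with SB, 4161 and 4344 at 3 days, 1080 and 961 at 7 days) fell by 1.87 at 7 days against SB (adjusted p = 3.87e-07) and by 2.06 from 3 to 7 days (adjusted p = 2.72e-06), and IL6R fell at both steps (2979 and 2690, 1127 and 1022, 433 and 404). The EGF receptor ligands EREG, AREG and BTC were lower at both times, with EREG at 15859 and 23088, 7468 and 6921, and 4909 and 5217. L1CAM, an adhesion molecule shed by ADAM10, rose from 42 and 40 with SB to 153 and 233 at 3 days and 601 and 514 at 7 days (2.18 and 3.73, adjusted p = 1.09e-05 and 4.97e-08), and ULBP2, a ligand of an NK cell receptor, rose by 1.06 at 7 days (adjusted p = 2.32e-05). The chemokine CX3CL1 (1026 and 1689, 149 and 165, 422 and 360) and the TNF receptor TNFRSF1B (55 and 117, 20 and 21, 31 and 25) were lower at both times, and HBEGF fell by 1.05 from 3 to 7 days (adjusted p = 0.00127).

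Matrix substrates rose with the proteases. Of the 16 listed, 8 were tested: 6 rose and 1 fell at 3 days, and 7 rose and 1 fell at 7 days, with medians of 1.16 and 1.66. VCAN (versican), the proteoglycan cut by ADAMTS15 and other ADAMTSs, had 4208 and 4595 normalized counts with SB, 21439 and 21018 at 3 days, and 85006 and 89304 at 7 days, without overlap (2.27 and 4.31, adjusted p = 2.9e-09 and 7.2e-12). COL5A1, a fibrillar collagen chain, rose from 30 and 50 to 508 and 605 and then to 2770 and 2465 (3.80 and 6.04, adjusted p = 8.3e-08 and 7.91e-10), and FBN1 (fibrillin) from 5619 and 6234 to 13755 and 13916 and to 17726 and 18165 (1.22 and 1.60, adjusted p = 5.03e-07 and 2.25e-08). FN1 (fibronectin) rose by 1.10 and 1.71 (adjusted p = 1.61e-06 and 1.77e-08), and COL1A1 at 7 days by 1.22 (adjusted p = 0.000144). ACAN (aggrecan) was at 0 in both SB libraries and at 12 and 14, then 45 and 28. BCAN (brevican) was the member that was lower (-0.63 and -0.86, adjusted p = 0.0114 and 0.000774).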

How the data were processed

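PolyA RNA from 6 libraries of H2087-LCC cells was used, prepared with a kit that does not mark strand. The authors checked read quality with FastQC 0.11.5, used STAR and the hg19 genome for mapping, counted the uniquely mapped pairs per gene in HTSeq 0.6.1p1 by its defaults and scaled the counts by library size for DESeq2 3.4. The deposited values are these normalized counts rounded to whole numbers. They are recorded as a score, since they are no longer read counts, and the negative binomial test of the authors was therefore not applied. The annotation release used for counting is not given in the sources used here.

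Values were transformed as log2(value + 1), and genes whose mean reached 10 entered a limma 3.58.1 fit in R 4.3.3 (moderated test with a trend on mean expression, group as the only term, all 6 libraries, 3 residual degrees of freedom), with p-values adjusted by the Benjamini-Hochberg method over all 14395 genes at 0.05. Groups came from the treatment labels. All 59 symbols matched GENCODE on GRCh37, from which positions, transcript lengths and codons were read. The zinc signature was searched in frame as codons for histidine, glutamate, any 2 residues, histidine, any 2, glycine, any 2 and histidine. Lifted coding sequences with a broken frame, MMP28 among them, were searched in every frame.

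The family members and the lists of related genes were chosen with earlier results of these data known. Full statistics were given for the TIMPs, for MMP2, MMP9, MMP14, ADAM10 and ADAM17, and for members past the threshold with an absolute log2 fold change of at least 1 in any comparison. Other tested members were given by values, and related genes were named by the same size rule or where a count was small. Counting intervals are exact 95% intervals for a ratio of summed normalized counts, taken as reads. The steps were tested on simulated counts with known changes. Alternatives were other pseudocounts (0.5 and 5), filters (none and a mean of at least 50), scalings, limma without its trend, 4 libraries only, the replicate number as a block and each library left out in turn. Plots were made in Python 3.11.15 with matplotlib 3.10.9. The other assays and cell lines of the study were not analysed here. Some genes counted in the lists of related genes are not reported here by name.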

Additional observations from a re-analysis of the deposited data

Results flagged for a closer look

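The change against SB differed between 3 and 7 days, with a direction between the times opposite to that at 3 days, for 3 members. Since both times were compared with the same SB libraries, this difference is the contrast of 7 days with 3 days in the limma fit. For MMP1 the effect at 7 days minus that at 3 days was -1.16 on the log2 scale (0.97 at 3 days and -0.19 at 7 days, adjusted p = 0.00134), and both 3-day libraries were above both 7-day libraries. For MMP13 it was -1.12 (1.02 at 3 days and -0.10 at 7 days, adjusted p = 0.000176), with the same order of libraries. For ADAMTS14 it was 1.59 (-2.82 at 3 days and -1.23 at 7 days, adjusted p = 0.00771), and both 7-day libraries were above both 3-day libraries.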

How the results depend on the processing

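Over single members, 1562 of 1707 values under the alternatives kept their direction and side of the threshold, and 0 calls reversed; 46 of the 65 calls held under every alternative. Between 3 and 7 days, 3042 genes passed with no filter on low values and 3122 without the trend in limma, against 4775. Leaving out each library in turn gave 2609 to 3877 genes at 3 days against SB (4170 with all), and 2314 to 5554 genes and 13 to 24 members between 3 and 7 days (4775 and 21 with all). The 13 members were those without the second 7-day library. Equal library totals gave 16 members at 3 days against SB in place of 19, and 41.6% of all calls higher in place of 51.5%. Without the trend the calls lost were those of ADAMTS3, ADAMTS10, ADAMTS17 and MMP17 at 3 days, ADAM11 and ADAMTS14 at 7 days, and ADAM9, ADAM17, ADAMTS3, ADAMTS14 and MMP14 (adjusted p = 0.0506) between the times. With no filter they were the same except that MMP1 at 3 days was lost and MMP14 was kept. ADAMTS3, ADAMTS10 and ADAMTS17 at 3 days also lost theirs with equal totals and with only the 4 libraries compared, ADAM11 at 7 days with equal totals and a pseudocount of 0.5, and ADAMTS3 between the times with both of these. The cause of these shifts was not tested. With a pseudocount of 5 the fitted changes of 5 low members moved by over 1.5 times and kept their calls.

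Deviations of same-numbered libraries from their group means were compared across 14395 genes. The r was 0.14 for SB and 3 days, -0.10 for SB and 7 days and -0.29 for 3 and 7 days. With 2 libraries per group, the negative values mean that libraries of unlike number deviated together in those pairs. A factor shared in that way was not tested, and the replicate number as a block does not cover it. With the replicate number as a block, 20, 25 and 23 members and 3943, 7546 and 4485 genes passed in the 3 comparisons, and of the member calls only the fall of ADAM9 from 3 to 7 days was lost (adjusted p = 0.061).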

Other observations

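Metalloproteinases outside the symbol rule were read from the same fit. BMP1, the procollagen C-proteinase, had 369 and 432 normalized counts with SB, 1153 and 1388 at 3 days, and 3106 and 2860 at 7 days, and rose by 1.66 and 2.90 (adjusted p = 1.28e-06 and 5.38e-09). PAPPA2, a protease of insulin-like growth factor binding proteins, had 126 and 122, 412 and 415, and 1975 and 1828, and rose by 1.73 and 3.93 (adjusted p = 8.27e-07 and 3.82e-10). In both genes the 3 groups did not overlap, and the further rise from 3 to 7 days passed (1.24 and 2.20, adjusted p = 4.44e-05 and 9.59e-07). TLL1, a relative of BMP1, had 0 and 2 with SB, 6 and 19 at 3 days, and 31 and 25 at 7 days. Over all genes tested, 29.0% had changed against SB at 3 days (14.9% higher) and 54.5% at 7 days (27.7% higher). Of the 7 genes tested in this list of ADAMTS-like and astacin-type genes, 3 rose at 3 days and 4 at 7 days, and none fell. The fourth was the ADAMTS-like gene ADAMTSL5 (212 and 237, 274 and 235, 325 and 319), and ADAMTSL4 passed only between 3 and 7 days (0.90, adjusted p = 0.0452).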
